A study of Mus musculus with 93 samples.

Results

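Semaphorins and their plexin and neuropilin receptors were followed in the circulating leukocytes of mice with mammary tumors. The set held 9 genes of the 18193 with a probe set of their own on the array. They were chosen by gene symbol after tumor and control values of these same arrays had been seen. Their differences between groups, and the limma calls on these differences, are therefore given as a description. The genes were the semaphorins Sema6b, Sema4a, Sema4b, Sema4d and Sema7a, the plexins Plxnb2, Plxnc1 and Plxnd1, and the co-receptor Nrp1. They were read by 22 probe sets, and each gene is represented below by the brightest of its own over all 93 arrays.

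Tumor arrays came from female MMTV/c-MYC transgenic mice of strain FVB/NJ with advanced mammary tumors, and controls from tumor-free wild-type females matched for age and parity. Per the study's methods the transgene, c-MYC or a more stable variant of it, was driven by the MMTV promoter in several lines. The sources used here do not tie arrays to lines. Mean age at euthanization was 431 days. Tumor arrays were split by the number in their label into 52 late-numbered arrays (training 6 to 32 and validation 9 to 33) and 13 early-numbered arrays (training 1 to 5 and validation 1 to 8), beside 28 controls. Late and early here name the label numbers and not a stage of disease. The labels name no animals, so errors measure the spread between arrays.

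The tumor sets also differed in their technical controls. The spiked bacterial transcript dap lay between 6.47 and 10.5 on the log2 scale in late tumor arrays, between 2.39 and 4.58 in early tumor arrays and between 2.3 and 3.84 in controls, so the late arrays did not overlap the others. The 5′ minus 3′ signal of actin, which falls as 5′ signal is lost, had a median of -0.5 in late tumor arrays, -1.4 in early tumor arrays and -0.6 in controls. Array preparation and tumor set therefore cannot be told apart, and the split itself was drawn with these values known. In addition, 1 late array, validation 19, held the lowest B cell and monocyte marker means and the highest T cell mean of its group.

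Semaphorins are ligands that steer cell movement and contact. They bind plexins, which act on small GTPases and the cytoskeleton, and some of them need a neuropilin as co-receptor. In blood, several members are carried by lymphocytes and myeloid cells and adjust activation, adhesion and migration.

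The sequence upstream of the start site is shown for the 3 genes with the largest differences between late tumor and control arrays and for Sema4b, which was lower by the most. Each run is the 250 bases before a RefSeq start of that gene (assembly GRCm38.p6), the farthest upstream of those listed in the table used, written 5′ to 3′ on the gene's strand. For Plxnb2 and Plxnd1 the run lies inside the annotated span of the gene. Capitals mark 3 motifs, searched on both strands: GAGGAA, a core bound by PU.1-type factors of myeloid cells and B cells, GGGCGG, bound by Sp-type factors, and CACGTG, the E-box bound by MYC and its relatives.
Sema6b (chr17:56140344-56140593, minus strand): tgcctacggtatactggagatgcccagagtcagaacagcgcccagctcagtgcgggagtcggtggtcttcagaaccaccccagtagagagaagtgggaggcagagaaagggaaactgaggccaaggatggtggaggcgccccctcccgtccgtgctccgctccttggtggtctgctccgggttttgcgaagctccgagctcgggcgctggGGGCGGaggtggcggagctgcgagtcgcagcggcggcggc
Sema4b (chr7:80186620-80186869, plus strand): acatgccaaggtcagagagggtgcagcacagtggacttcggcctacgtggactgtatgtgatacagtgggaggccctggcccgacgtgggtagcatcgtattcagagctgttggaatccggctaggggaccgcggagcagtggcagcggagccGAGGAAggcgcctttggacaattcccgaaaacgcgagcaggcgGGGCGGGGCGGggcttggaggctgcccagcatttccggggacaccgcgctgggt
Plxnb2 (chr15:89180789-89181038, minus strand): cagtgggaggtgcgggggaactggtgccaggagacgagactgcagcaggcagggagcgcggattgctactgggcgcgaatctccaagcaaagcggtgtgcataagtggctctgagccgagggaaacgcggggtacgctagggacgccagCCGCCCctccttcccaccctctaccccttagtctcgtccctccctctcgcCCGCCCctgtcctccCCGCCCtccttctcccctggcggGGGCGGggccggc
Plxnd1 (chr6:115995006-115995255, minus strand): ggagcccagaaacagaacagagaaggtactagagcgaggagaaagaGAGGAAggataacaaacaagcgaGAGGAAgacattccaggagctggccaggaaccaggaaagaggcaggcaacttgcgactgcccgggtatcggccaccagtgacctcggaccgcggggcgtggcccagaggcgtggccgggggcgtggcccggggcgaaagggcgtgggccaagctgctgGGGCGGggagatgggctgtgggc
GAGGAA was present in 8 of the 17 windows of the 9 genes, against 23.3% of all 32851 RefSeq windows of this length. GGGCGG was present in 14 of 17, against 32.7%, and CACGTG in 1 of 17, against 6.02%. The 17 windows include several starts of the same gene, and windows of Sema4a overlap each other.

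**Figure D1:**
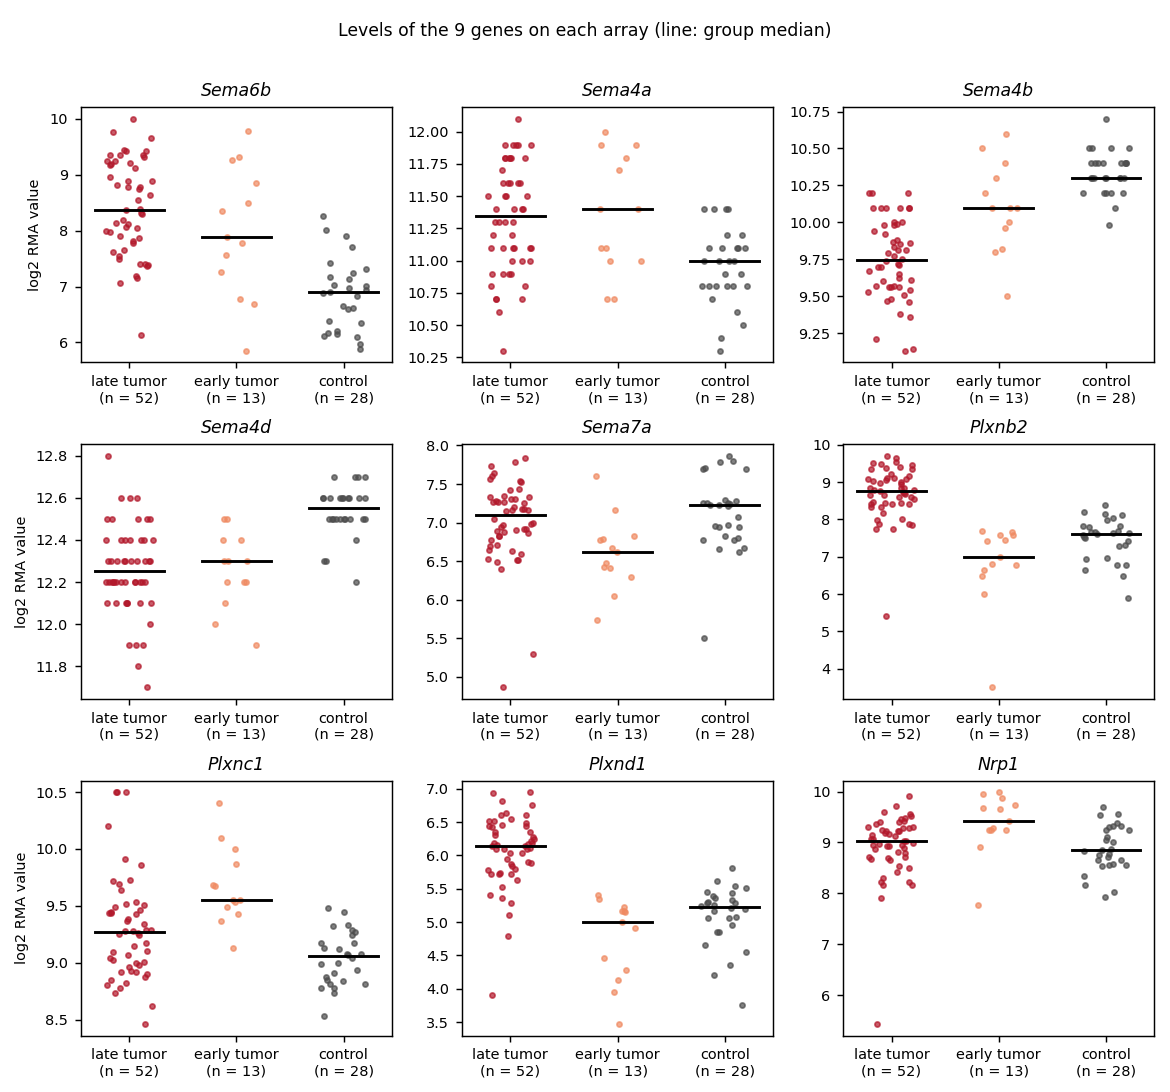
Log2 RMA value (y axis) of each gene on every array of the late tumor (n = 52), early tumor (n = 13) and control (n = 28) groups, with a line at the group median. Plxnb2 and Plxnd1 were highest in late tumor arrays, with medians of 8.77 and 6.14, and Sema6b stood above the control mean in 51 of 52 late and 10 of 13 early arrays.

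Sema6b, a transmembrane semaphorin known from other tissues as a ligand of A-type plexins, lies at chr17:56123085-56140343 and had a single probe set. Its log2 level ran from 6.13 through a median of 8.38 to 10.0 in late tumor arrays, from 5.85 through 7.88 to 9.79 in early tumor arrays, and from 5.88 through 6.90 to 8.26 in controls. The groups overlapped, though 29 of 52 late arrays and 6 of 13 early arrays lay above the highest control. The difference from control was 1.57 ± 0.191 (SE, log2) in late tumor arrays, a 2.98-fold ratio, and 1.11 ± 0.275 in early tumor arrays.

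Sema4a, a ligand found on dendritic cells and T cells that acts in T cell priming, lies at chr3:88435959-88461182. Its brightest probe set ran from 10.3 through 11.35 to 12.1 in late tumor arrays, from 10.7 through 11.4 to 12.0 in early tumor arrays and from 10.3 through 11 to 11.4 in controls. The difference from control was 0.38 ± 0.0904 in late and 0.40 ± 0.130 in early tumor arrays. A dimmer probe set of the gene gave 0.83 ± 0.0954 in late and 0.04 ± 0.137 in early tumor arrays, so the early difference was present in only 1 of its 2 probe sets.

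Sema4b, a relative of Sema4a, lies at chr7:80186870-80226646 and was the member with the largest decrease in late tumor arrays. Levels ran from 9.13 through 9.75 to 10.2 in late tumor arrays, from 9.50 through 10.1 to 10.6 in early tumor arrays and from 9.98 through 10.3 to 10.7 in controls. All 52 late arrays lay below the control mean, and 38 of them below the lowest control. The difference was -0.59 ± 0.0579 in late and -0.22 ± 0.0831 in early tumor arrays, and its dimmer probe set, below the median level of all probe sets, gave -0.34 ± 0.0981 and -0.73 ± 0.141 in the late and the early set.

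Sema4d, also called CD100, is abundant on T cells and is shed to act on CD72 and on B-type plexins. It lies at chr13:51685529-51793678. Its brightest probe set ran from 11.7 through 12.25 to 12.8 in late tumor arrays, from 11.9 through 12.3 to 12.5 in early tumor arrays and from 12.2 through 12.55 to 12.7 in controls. It was lower than control by a similar amount in both tumor sets, with -0.28 ± 0.0444 in late and -0.28 ± 0.0638 in early tumor arrays. The other 2 probe sets of the gene took opposite directions in the tumor sets. They were higher in late tumor arrays, by 0.59 ± 0.0781 and 0.38 ± 0.0947, and lower in early tumor arrays, with -0.67 ± 0.112 and -1.09 ± 0.136.

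Sema7a, a membrane-anchored semaphorin that binds plexin C1 and integrins, lies at chr9:57939596-57962865. It ran from 4.86 through 7.10 to 7.84 in late tumor arrays, from 5.74 through 6.62 to 7.60 in early tumor arrays and from 5.50 through 7.23 to 7.87 in controls. The lowest late array was validation 19, and 0 of 65 tumor arrays exceeded the highest control. The difference from control was -0.10 ± 0.119 in late and -0.53 ± 0.170 in early tumor arrays, and the late one lay within its error of 0. A dimmer probe set gave 0.25 ± 0.0828 and -0.14 ± 0.119 in the late and the early set.

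Plxnb2, a receptor of Sema4 ligands, lies at chr15:89155546-89182018 and showed the widest gap between the tumor sets. Its levels ran from 5.41 through 8.77 to 9.71 in late tumor arrays, from 3.50 through 6.98 to 7.68 in early tumor arrays and from 5.90 through 7.62 to 8.39 in controls. Of the late arrays 41 of 52 lay above the highest control, while 0 of 13 early arrays did. The difference from control was 1.22 ± 0.170 in late tumor arrays, a 2.34-fold ratio, and -0.66 ± 0.243 in early tumor arrays. The early value rested in part on array validation 6, the lowest at 3.50, and was -0.39 without it, no longer passing the threshold of a call.

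Plxnc1, the receptor of Sema7a, lies at chr10:94790866-94945015 and had 6 probe sets. The brightest ran from 8.46 through 9.27 to 10.5 in late tumor arrays, from 9.13 through 9.55 to 10.4 in early tumor arrays and from 8.53 through 9.06 to 9.48 in controls. It was 0.26 ± 0.0907 above control in late and 0.64 ± 0.130 above control in early tumor arrays. In late tumor arrays 3 of the other probe sets stood higher than control by 1.19 to 1.31, and in early tumor arrays those same 3 gave 0.51, -0.68 and -0.35. The second brightest gave -0.0045 ± 0.0894 in late and -0.32 ± 0.128 in early tumor arrays. The dimmest gave 0.22 ± 0.0676 and 0.45 ± 0.0971 in the late and the early set. The gene's value in early tumor arrays thus had no single direction over its probe sets.

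Plxnd1, a receptor for Sema3e and Sema4a, lies at chr6:115954811-115995339 and had a single probe set. It ran from 3.90 through 6.14 to 6.95 in late tumor arrays, from 3.47 through 5 to 5.40 in early tumor arrays and from 3.76 through 5.23 to 5.81 in controls. Of the late arrays 38 of 52 lay above the highest control, and 0 of 13 early arrays did. The difference from control was 0.97 ± 0.123 in late tumor arrays, a 1.95-fold ratio, and -0.36 ± 0.177 in early tumor arrays.

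Nrp1, a co-receptor of secreted semaphorins and of VEGF that is also carried by many regulatory T cells, lies at chr8:128358591-128505476. Its brightest of 4 probe sets ran from 5.43 through 9.02 to 9.91 in late tumor arrays, from 7.77 through 9.43 to 9.99 in early tumor arrays and from 7.92 through 8.84 to 9.69 in controls. The groups overlapped, with 2 of 52 late and 4 of 13 early arrays above the highest control. The difference was 0.05 ± 0.137 in late and 0.52 ± 0.197 in early tumor arrays. A probe set of nearly the same brightness gave -0.43 ± 0.134 and 0.62 ± 0.192 in the late and the early set, another gave 0.20 ± 0.148 and 0.80 ± 0.212, and the dimmest gave -0.32 ± 0.162 and -0.04 ± 0.232.

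**Figure D2:**
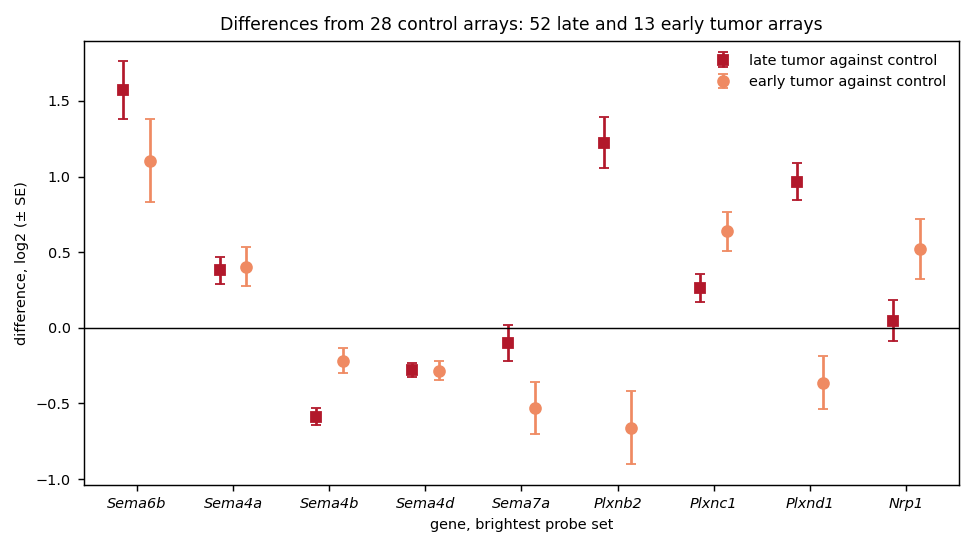
Difference from the 28 controls on the log2 scale (y axis, ± SE) for each gene by its brightest probe set, in 52 late (squares) and 13 early (circles) tumor arrays. Plxnb2 and Plxnd1 were above 0 in late arrays (1.22 and 0.97) and below 0 in early arrays (-0.66 and -0.36).

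In one limma fit over all probe sets, with the cohort as a covariate and a call at an adjusted p under 0.05, the 9 genes were called as follows. Late tumor arrays against control gave 7 calls, 5 higher (Sema6b, Sema4a, Plxnb2, Plxnc1, Plxnd1) and 2 lower (Sema4b, Sema4d), where 46.2% of all genes were called, 25.6% higher and 20.5% lower. With 3 components of the control probe sets as covariates, 6 of these 7 were no longer called and Sema4d turned to 0.44. Early tumor arrays against control gave 8, 4 higher (Sema6b, Sema4a, Plxnc1, Nrp1) and 4 lower (Sema4b, Sema4d, Sema7a, Plxnb2), where 63.3% of genes were called, 34.3% higher and 29% lower. Without early array validation 6, Plxnb2 was no longer called there. Of the 16 alternatives given below, the early call held in 9 for Sema4b, where the difference ran from -0.33 to -0.0001. It held in 10 for Sema7a (-0.62 to -0.11) and in 10 for Plxnb2 (-1.08 to -0.061). Late against early tumor arrays gave 6, 3 higher (Sema7a, Plxnb2, Plxnd1) and 3 lower (Sema4b, Plxnc1, Nrp1), where 69.8% of genes were called, 31.5% higher and 38.3% lower. With both tumor sets as one group against control 5 were higher and 2 lower, where 42.3% of genes were called, 22.7% higher and 19.6% lower. The median difference of the 9 genes was 0.26 in late against control and -0.22 in early against control, beside 0.04 and 0.07 over all genes. Because the genes had been selected on these contrasts, nothing is read from the counts. Late and early comparisons share the 28 controls.

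**Figure D3:**
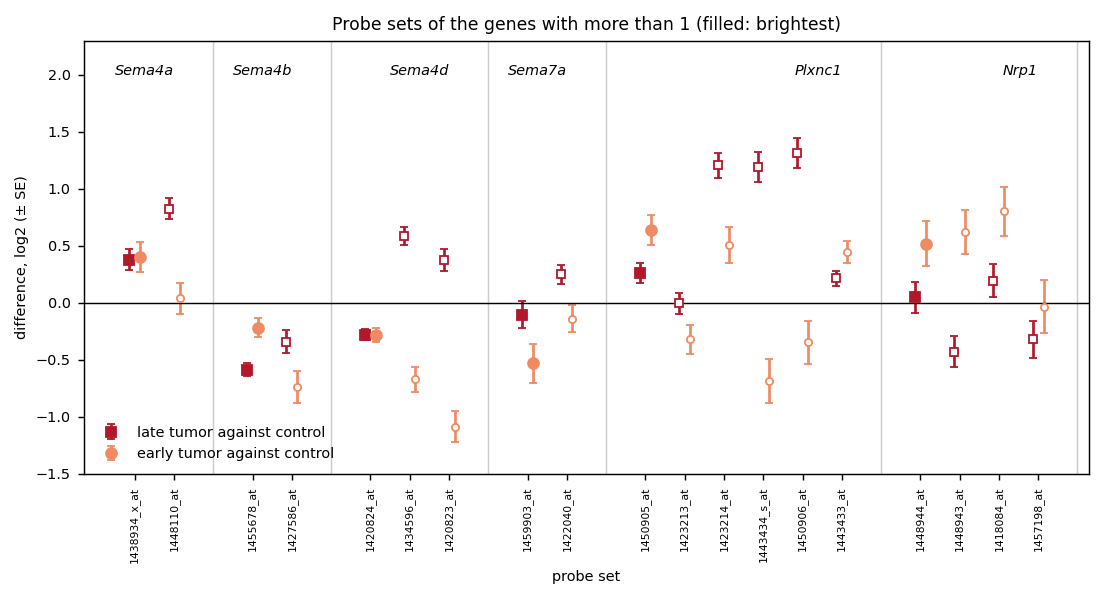
Difference from control on the log2 scale (y axis, ± SE) of every probe set (x axis) of the 6 genes with more than 1, in late (squares) and early (circles) tumor arrays, with the brightest probe set filled. The late values of the 2 open probe sets of Sema4d (0.59 and 0.38) lie above 0 and the early ones (-0.67 and -1.09) below it.

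The difference from control was also compared between the training and validation cohorts, with a cohort by group interaction in limma. In late tumor arrays no member passed and 0 of all probe sets did, with 990 at an unadjusted p under 0.05. In early tumor arrays no member passed, and 145 probe sets did, with 5618 at an unadjusted p under 0.05. The early difference of Plxnb2 was the nearest among the members, at -1.02 ± 0.489 (validation minus training, limma p = 0.039, adjusted p = 0.37).

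Blood is a mixture, and fewer cells of a type or less RNA per cell cannot be told apart in it. Marker lists of 11 cell types, read as the mean log2 level of their genes, moved between groups as well. In limma, 8 of 9 B cell markers were lower in late tumor arrays than in controls and 7 of 9 in early tumor arrays. Of the T cell markers, 5 of 9 were lower and 1 higher in late tumor arrays and 7 of 9 lower in early tumor arrays, and of the NK cell markers 3 of 7 were lower and 1 higher in late and 5 of 7 lower in early tumor arrays. Sema4d, which was lower in both tumor sets by its brightest probe set, had r = 0.055 and rho = -0.108 with the T cell list in late tumor arrays (permutation, adjusted p = 0.768 and 0.58). Neutrophil markers were higher for 6 of 9 in late tumor arrays, but for 1 of 9 in early tumor arrays, with 1 lower. Monocyte markers were higher for 5 of 9 in late tumor arrays, and for 1 of 9 in early tumor arrays, with 2 lower. The mammary epithelial markers, of which 5 of 8 were higher in late tumor arrays, had list means of 3.65 to 5.63 in late tumor arrays, 3.63 to 4.85 in early tumor arrays and 3.39 to 4.15 in controls. The milk protein gene Csn2 averaged 3.52 in late tumor arrays, 3.19 in early tumor arrays and 2.40 in controls, where the lowest value of the whole table was 1.23. A fit with B cell, T cell and neutrophil marker means as covariates was among the alternatives given below. Over those alternatives the late difference of Sema6b from control ran from 0.71 to 1.77. Whether these cell types account for the member values was not tested.

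Within groups, members were set against the lists over arrays, with permutation p-values from 100000 resamples, two-sided and adjusted over 99 relations in each group. Sema6b followed the neutrophil markers, with r = 0.879 and rho = 0.9 in late tumor arrays (adjusted p = 8.25e-05 for both, from a raw p of 1e-05, the smallest these permutations can give) and r = 0.597 and rho = 0.62 in controls (adjusted p = 0.00783 and 0.0125). Without the 2 arrays farthest from the list's median r was 0.879 in late tumor arrays and 0.579 in controls. In controls its r with the monocyte markers was higher still, at 0.645 with rho = 0.65 (permutation, adjusted p = 0.00297 and 0.00594), while in late tumor arrays it was 0.475. With the neutrophil markers, r within cohorts of the late arrays was 0.901 in training and 0.863 in validation. In the 13 early arrays r with the neutrophil markers was 0.943, given as a description. Sema4a also followed the neutrophil markers in late tumor arrays, with r = 0.711 and rho = 0.741 (adjusted p = 8.25e-05 for both), 0.737 in training and 0.673 in validation. In controls r was 0.63 and rho 0.555 (permutation, adjusted p = 0.00473 and 0.0284). Without the 2 farthest arrays that r was 0.41, which did not pass (permutation, adjusted p = 0.194). With the monocyte markers r in controls was 0.602 and rho 0.521 (permutation, adjusted p = 0.00564 and 0.0457).

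Plxnb2, Plxnd1 and Nrp1 followed the monocyte markers. In late tumor arrays r was 0.835 for Plxnb2, 0.815 for Plxnd1 and 0.861 for Nrp1, with rho of 0.623, 0.679 and 0.668 (permutation, adjusted p = 8.25e-05 for each). In controls r was 0.868, 0.924 and 0.78, with rho of 0.759, 0.902 and 0.828 (permutation, adjusted p = 0.00033 for each). Without the 2 arrays farthest from the list's median r fell to 0.641, 0.738 and 0.662 in late tumor arrays, and in controls it was 0.794, 0.883 and 0.733. In early arrays r was 0.696 for Plxnb2, 0.304 for Plxnd1 and 0.726 for Nrp1. There r was higher with the red cell precursor markers for Plxnb2 and Nrp1 (0.838 and 0.753) and with the endothelium markers for Plxnd1 (0.571). In controls Plxnb2, Plxnd1 and Nrp1 also had r of 0.654, 0.663 and 0.67 with the neutrophil markers, where rho passed only for Nrp1. Nrp1 passed with the regulatory T cell markers too in late tumor arrays, at r = 0.611 and rho = 0.374 (permutation, adjusted p = 0.00099 and 0.0171). Without the 2 farthest arrays that r was 0.336, and in controls it was 0.343, which did not pass (permutation, adjusted p = 0.181). As a description, Plxnb2 also moved with Plxnd1, at r = 0.841 in late tumor arrays, 0.431 in early tumor arrays and 0.86 in controls.

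Sema4b was the member that followed B cell markers, with r = 0.608 and rho = 0.617 in late tumor arrays (permutation, adjusted p = 8.25e-05 for both) and 0.618 in early tumor arrays. Its r and rho there also passed with the T cell (r = 0.396), NK cell (0.406), regulatory T cell (0.334) and, negatively, neutrophil markers (-0.452) in late tumor arrays. In early tumor arrays its r with the neutrophil markers was -0.701. In controls r was 0.478 (permutation, adjusted p = 0.0439), but rho was 0.355 (permutation, adjusted p = 0.219) and r without the 2 farthest arrays was 0.353, neither of which passed. Sema4d ran against the red cell precursor markers, with r = -0.812 and rho = -0.751 in late tumor arrays (permutation, adjusted p = 8.25e-05 for both). It also ran against the endothelium and platelet markers there, with r = -0.76 and -0.635 and rho = -0.731 and -0.724 (permutation, adjusted p = 8.25e-05 for each). With the red cell precursor markers r was -0.385 in controls, which did not pass (permutation, adjusted p = 0.126), and -0.014 in early tumor arrays. In late tumor arrays Sema4d had r = -0.743 with the dap spike-in and -0.591 with 18S ribosomal RNA, given as a description. Sema7a had r = 0.618 with the monocyte markers in late tumor arrays, but rho was 0.264 (permutation, adjusted p = 0.115). Plxnc1 had no r above 0.5 in size with any list in late tumor arrays, but r and rho both passed for several lists. They were 0.449 and 0.467 with the neutrophil markers, -0.437 and -0.451 with the T cell markers, and -0.487 and -0.397 with the NK cell markers. With the B cell markers they were -0.335 and -0.376, and with the regulatory T cell markers -0.34 and -0.468.

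**Figure D4:**
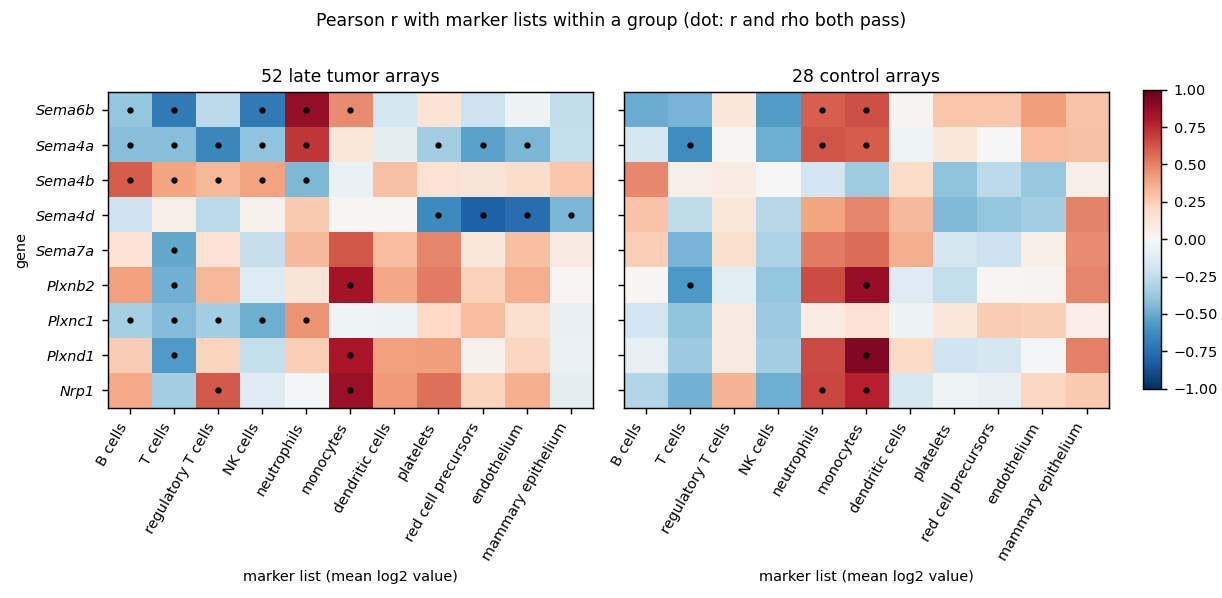
Pearson r (colour) between each gene (rows) and the mean log2 value of each marker list (columns) over 52 late tumor arrays (left) and 28 control arrays (right), with a dot where r and rho both passed. Sema6b and neutrophils (0.879 and 0.597) and Plxnd1 and monocytes (0.815 and 0.924) are marked in both panels.

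Over all genes, those whose deviations from the 3 group means followed a member most closely over the 93 arrays were Lrg1 and Clec4e for Sema6b (r = 0.933 and 0.926), Lrp1 and Pld4 for Plxnb2 (0.898 and 0.889), Pid1 and Ptpro for Nrp1 (0.869 and 0.864), Relt and Rgs19 for Sema4a (0.851 and 0.851) and Niban2 and Stx3 for Plxnd1 (0.831 and 0.828). For Sema4d they were Oxsr1 and Mrfap1 (0.782 and 0.754), for Sema7a Adssl1 and Cyp4f18 (0.74 and 0.738), for Sema4b B3gnt5 and Aff3 (0.684 and 0.651) and for Plxnc1 Rab8b and Atg9a (0.602 and 0.601). These r are a description, and the arrays share their amplification method and normalization.

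Other genes of the pathway were read from lists, to be set beside the 46.2% of all genes called in late tumor arrays (25.6% higher, 20.5% lower) and the 63.3% called in early tumor arrays (34.3% higher, 29% lower). Of 15 other semaphorins, 1 was higher and 4 lower in late tumor arrays, and 6 were higher and 2 lower in early tumor arrays. Only 3 of these 15 lay above the median level of all probe sets, and nothing is read from the counts. Their median difference was -0.065 in late and 0.087 in early tumor arrays, against 0.04 and 0.07 over all genes. Sema3f, a secreted ligand, was higher in late (0.33 ± 0.106, limma adjusted p = 0.00788) and early tumor arrays (0.76 ± 0.152, adjusted p = 1.18e-05), and Sema4f was lower in both (-0.32 ± 0.131 and -0.55 ± 0.188, limma adjusted p = 0.036 and 0.00868). Of 7 other plexins and neuropilins, 2 were higher and 1 lower in late tumor arrays, and 0 were higher and 1 lower in early tumor arrays, the last being Plxna4 (-0.61 ± 0.266, limma adjusted p = 0.0377).

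Among 15 receptors, partners and neuropilin ligands, 4 were higher and 1 lower in late tumor arrays, and 2 were higher and 4 lower in early tumor arrays. These counts stand beside the shares of all genes given above, and the median differences were 0.043 and -0.018. The lower gene in late tumor arrays was Cd72, the lymphocyte receptor of Sema4d, at -0.70 ± 0.133 in late and -1.32 ± 0.191 in early tumor arrays (limma adjusted p = 5.79e-06 and 6.47e-09). Trem2, a receptor of myeloid cells, was higher in late tumor arrays by 1.07 ± 0.151 (limma adjusted p = 2.83e-09), and its adaptor Tyrobp differed by 0.25 ± 0.0709 in late and -0.56 ± 0.102 in early tumor arrays (limma adjusted p = 0.00191 and 1.87e-06).

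Inside the cell, 13 of 32 effectors were higher and 7 lower in late tumor arrays, and 7 higher and 9 lower in early tumor arrays. These counts too stand beside the shares of all genes given above, and the median differences were 0.022 and -0.039. The GTPase Rnd1 was higher in late tumor arrays by 1.53 ± 0.225, the kinase Fes by 1.23 ± 0.138 and the GTPase Rras by 0.91 ± 0.0943 (limma adjusted p = 8.25e-09, 6.52e-13 and 2.84e-14). Rras2, its relative, was lower, at -1.74 ± 0.111 in late and -0.55 ± 0.160 in early tumor arrays (limma adjusted p = 1.71e-25 and 0.00211). Rac2, the Rac of blood cells, and the kinase Cdk5 were higher in late tumor arrays (0.38 ± 0.0683 and 0.46 ± 0.101) and lower in early tumor arrays (-0.94 ± 0.0980 and -1.82 ± 0.145), each called by limma. Of the 4 shedding and processing enzymes, Adam10, which cuts several membrane proteins, was slightly lower in late (-0.13 ± 0.0463) and higher in early tumor arrays (0.85 ± 0.0665), also called by limma in both.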

How the data were processed

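Blood leukocyte RNA of 65 tumor and 28 control samples was amplified and hybridized to Affymetrix mouse arrays. The deposited values were on a log2 scale and came from RMA (version not given in the sources used here). RMA corrects background, quantile-normalizes and summarizes probe sets. The medians of the deposited arrays ran from 4.3 to 4.91. In the study the mouse data were standardized on principal components of control probe sets. Whether the deposited values include that step is not stated in the sources used here. The values carried 3 significant digits, so levels from 10 on move in steps of 0.1. Depth has no meaning for arrays, and their number limits the precision. Of 45101 probe sets, 64 controls were left out, and 34945 had a single gene symbol.

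Differences were fitted in R 4.3.3 by limma 3.58.1 (lmFit, eBayes with trend, two-sided, Benjamini-Hochberg over 45037 probe sets, cohort as covariate), after the fit was tested on simulated data. Correlations used numpy 2.4.6 with permutations in Python 3.11.15. The members, lists and the split of tumor arrays were chosen with earlier results of these data known. Named genes were the 9 members, up to 4 called genes per pathway list and direction with the largest difference and a level above the median, and the 2 genes most like each member. Alternatives covered scaling, filtering, cohorts, controls, covariates, array weights, probe sets and left-out arrays. Positions of probes in the transcripts were not used here. The promoter windows are RefSeq's.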

Additional observations from a re-analysis of the deposited data

Results flagged for a closer look

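For 5 probe sets the late and the early difference from control were both called in limma, in opposite directions, and the difference between the tumor sets was called too. Plxnb2 differed by 1.88 (late minus early, log2). In Plxnc1 a dimmer probe set differed by 1.88, and in Sema4d the dimmest and the middle probe set by 1.46 and 1.26. In Nrp1 the second brightest probe set differed by -1.05, being lower than control in late and higher in early tumor arrays. These probe sets lie in genes chosen on these contrasts, and technical controls also differed between the tumor sets: dap was high in late tumor arrays, at a mean of 8.25, against 3.09 in early tumor arrays and 2.82 in controls, and the actin 5′ minus 3′ signal was lowest in early tumor arrays, with means of -0.54 in late tumor arrays, -1.42 in early tumor arrays and -0.64 in controls. The part of array preparation was not tested.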

How the results depend on the processing

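Of the 540 values of members recomputed under the 16 alternatives to the fit, 440 kept their direction and their side of the threshold. The counts of called probe sets were 19728 (late tumor against control), 28173 (early tumor against control), 30619 (late against early tumor) and 18777 (tumor against control), and moved by over 1.5 times in 10 cases. Leaving out dim probe sets gave 13594 for early against control and 16296 for late against early, since fewer were tested. Validation arrays alone gave 13065 for late and 7656 for tumor against control. The 3 components of the control probe sets as covariates gave 8254 for late against control and 13622 for late against early. B cell, T cell and neutrophil marker means as covariates gave 15809 for early and 12171 for tumor against control. For the others the cause was not tested. The replicate block gave 11990 for late against control and 18153 for late against early. Same-numbered arrays deviated together in only 10 of 28 pairs (r over 0.1, range -0.57 to 0.33). The labels state no pairing, and such correlations cannot show that there was none. The numbers were not treated as pairs in the main fit. Under the replicate block Plxnb2 was 1.25 in late against control and Sema4a 0.36, no longer called.

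Directions turned mostly where the value was small or the probe set changed. Sema4d in late against early was -0.075 with arrays centred, -0.0044 with quantile normalization repeated, -0.028 in training arrays, -0.0052 with array weights, -0.073 with actin and -0.082 with the marker means, and ran from -0.0078 to 0.0036 with an array left out. Sema4a in late against early was 0.14 in training arrays, 0.40 with actin, 0.055 with the control components, and from -0.031 to 0.018 with an array left out. Nrp1 in late against control was -0.039 in validation arrays, -0.027 with actin and -0.76 with the control components. Plxnc1 in late against early was 0.037 with actin, and in late against control -0.0027 with the marker means. With the control components Sema4d in late against control was 0.44, Sema7a in late against early -1.18, and Plxnb2 and Plxnd1 in tumor against control -0.43 and -0.057. Sema6b in late against early was -0.089 with the marker means. By another probe set, late against early was 0.79 for Sema4a, 0.39 for Sema4b and 0.32, 0.70, 1.88 and 1.66 for Plxnc1. Late against control was 0.38 and 0.59 for Sema4d, 0.25 for Sema7a, -0.0045 for Plxnc1, and -0.43 and -0.32 for Nrp1. Early against control was -0.32, -0.68 and -0.35 for Plxnc1 and -0.036 for Nrp1. Tumor against control was 0.084 and 0.34 for Sema4d, 0.17 for Sema7a, -0.068 for Plxnc1, and -0.22 and -0.26 for Nrp1.

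Leaving out an array, chosen after seeing the data, ended the call of Plxnb2 in early against control (-0.39 without validation 6, adjusted p = 0.113) and brought Plxnd1 there past the threshold (-0.37 without late validation 19, -0.41 without control training 11). It also brought Sema6b in late against early past it (0.52 without late validation 19, 0.61 without early validation 6). Called probe sets then numbered 19608 to 20446, 28173 to 28730, 30482 to 30992 and 18717 to 19700 in the 4 comparisons. With the control components as covariates, the late differences of Sema6b, Sema4a, Sema4b, Plxnb2, Plxnc1 and Plxnd1 from control no longer passed.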
